A study of Homo sapiens with 12 samples.

Results

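Propionate given before TNF-α was compared with TNF-α alone in HK2 cells, an immortalised line of human proximal tubular epithelium. The members were the libraries of cells held in 15 mM propionate for 24 h before stimulation with TNF-α (PRTN, n = 2) and those of cells that received the same TNF-α and no short-chain fatty acid (TN, n = 2), chosen by their labels. They are 4 of the 12 libraries of the series. TNF-α was used at 5 ng/mL for 3 h in both groups. Untreated cells (Ctrl, n = 2), cells given the same propionate after TNF-α (TNPR, n = 2) and cells held in 3 mM butyrate for 24 h before TNF-α (BUTN, n = 2) were used only where they are named. All groups are this 1 cell line, which carries papillomavirus oncogenes, and no group received propionate without TNF-α or waited 24 h without it. An effect of propionate alone, of the longer culture and of the pair of agents therefore cannot be told apart in these libraries. A general treatment note shared by the labels mentions other agents, thapsigargin and JQ1, and the groups here follow the sample labels, in which TNF-α and the fatty acids stand. The study calls the libraries of a group biological replicates without saying whether they came from separate cultures, so p-values measure only the spread between these samples.

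Propionate is made by gut bacteria from dietary fibre, is burned by cells through propionyl-CoA, and at millimolar concentration inhibits class I and II histone deacetylases, the enzymes that remove acetyl groups from histone tails. Histone deacetylase inhibitors are known for raising CDKN1A (p21), which blocks cyclin-dependent kinases, and for releasing genes that are silent in the cell type treated. TNF-α acts through its receptor, IκB kinases and NF-κB to switch on inflammatory genes within hours. In the tubule, injured epithelial cells re-enter the cell cycle and secrete cytokines and matrix.

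Each library gave the expected read count of every annotated gene. The counts summed to 29049322 and 30517192 in TN and to 33765341 and 32131737 in PRTN. Levels are in CPM, the count of a gene per fixed number of counts in its library after TMM scaling, and 3 counts correspond to between 0.0868 and 0.112 CPM in these 4 libraries, a floor that covers counting error only. Mitochondrial genes took 7.73% to 8.09% of the counts. A count of at least 1 was seen for 24515 and 24548 genes in TN and for 27746 and 27402 genes in PRTN. Differences are log2 fold changes of PRTN over TN with their standard error (SE), from limma-voom fitted to all 12 libraries, and a gene was called where the fold change exceeded 1.5 and the Benjamini-Hochberg adjusted p was under 0.05. In RNA of whole cultures, fewer cells of a kind and less RNA per cell cannot be told apart.

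Of the 24342 genes tested, 5824 (23.9%) were called higher and 4057 (16.7%) lower in PRTN. TNF-α alone raised 186 genes (0.764%) and lowered 130 (0.534%) against Ctrl in the same fit. The study reports more induced genes at the same nominal thresholds, so some genes outside this set are induced in its list. Without these 186 TNF-α-induced genes, 5805 of 24156 (24.0%) were higher and 3955 (16.4%) lower, so that 99.7% of the higher and 97.5% of the lower genes lay outside the TNF-α-induced set. The induced genes, a set that the same TN libraries define, split into 19 higher, 102 lower and the rest without a call. Genes that rose came from low levels and genes that fell from high ones, with a median TN level of 0.576 CPM for the former and 23.6 CPM for the latter. Among genes with a mean over all 12 libraries under 1 CPM, 24.3% were higher and 6.87% lower, from 1 to 10 CPM 35.8% and 21.9%, and above 10 CPM 18.0% and 23.2%. The filter on low counts used all 12 libraries, so a gene silent in TN could be tested through the libraries that express it. TN also enters both the level and the call. Rises from low levels are therefore in part built in by the selection. Against untreated cells, PRTN had 22.6% of genes higher and 16.9% lower. Scaling by library size alone moved the median log2 fold change of all genes from 0.09 to 0.24 and the calls to 6785 higher and 3127 lower, so that 68.5% of calls were higher in place of 58.9%. Other choices shrank the excess of rises. A filter by geometric mean without an added 1 gave 4277 higher and 3882 lower (52.4% higher, median -0.02). The default filter of edgeR gave 54.3% higher, with a median of 0.0005. Without TN replicate 1 or 2 the median was 0.044 or 0.045.

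Marker lists of cell types were counted to check the label. Markers of the renal epithelial line summed to 3711 to 3829 CPM in TN and to 4082 to 4129 CPM in PRTN, with 4 of 10 called higher and 4 lower. Proximal tubule markers, 5 of 9 tested higher and 1 lower, summed to 273 to 299 CPM in TN and 188 to 189 CPM in PRTN, a fall carried by GGT1, and SLC22A6, a defining transporter, was at 0 in all 12 libraries. Macrophage markers, 4 of 6 tested higher, summed to 30.9 to 34.5 CPM in TN and 28.5 to 29.0 CPM in PRTN, most of it CD68 at 29.7 and 33.3 CPM and then 23.1 and 24.0 CPM. Lymphocyte markers, also 4 of 6 higher, stayed at or under 1.36 CPM. Endothelial markers, 6 of 7 tested higher, summed to 20.4 to 21.8 CPM in TN and 73.6 to 76.8 CPM in PRTN, most of it ESAM with means of 20.6 and 69.0 CPM. Fibroblast markers, 7 of 10 higher and 2 lower, summed to 53.5 to 55.7 CPM in TN and 232 to 236 CPM in PRTN, most of it COL1A1 with means of 41.4 and 178 CPM. Neuron markers, 6 of 8 tested higher, summed to 40.2 to 42.8 CPM and 178 to 179 CPM. Of each list of 10, the members with no count in either PRTN library were FCGR3A and C1QA (macrophage), CD3E and MS4A1 (lymphocyte), CLEC14A and EMCN (endothelium) and STMN2 and ELAVL4 (neuron). Other members of these lists rose, among them SLC17A7, from 0.186 and 0.108 CPM to 24.8 and 25.8 CPM, TIE1, from 0.0745 and 0.0718 CPM to 3.18 and 3.22 CPM, and CD14, from 0.633 and 0.897 CPM to 2.75 and 2.77 CPM.

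To describe the programmes that moved, 21 lists of genes with known roles were counted. Where a list lay near the shares over all tested genes (23.9% higher and 16.7% lower), its count says little of its members. The lists ranged from one in which 16 of 20 tested members rose and 0 fell, genes known to respond to histone deacetylase inhibitors, to one in which 30 of 39 fell and 0 rose, genes of mitosis.

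**Figure D1:**
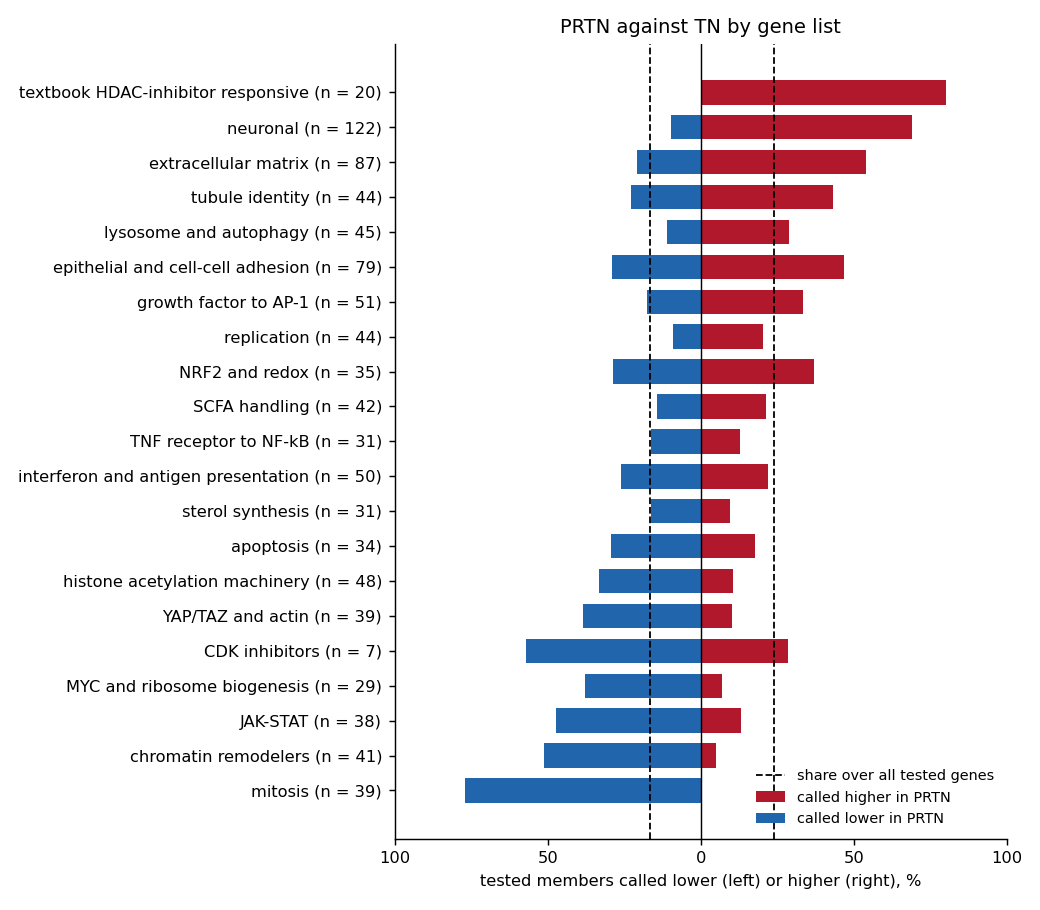
Share of tested members of each of 21 gene lists called higher (red, right) or lower (blue, left) in PRTN against TN, in percent, with the number tested beside each name and dashed lines at the shares over all tested genes (23.9% higher and 16.7% lower). Mitosis (30 of 39), CDK inhibitors (4 of 7) and chromatin remodelers (21 of 41) reach furthest to the left, and the histone deacetylase inhibitor, neuronal and matrix lists furthest to the right.

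All 39 listed mitosis genes passed the filter on low counts, and 30 fell with 0 rising, at a median log2 fold change of -0.81 against 0.09 over all genes, while 23.2% of all genes with a mean above 10 CPM were lower. Of the 44 listed replication genes, which also all passed, 9 rose (20.5%) and 4 fell (9.09%), with a median of 0.06. All 44 had a mean above 10 CPM, where 18.0% of all genes were higher, a share near theirs. Among mitosis genes the fall covered cyclins and kinases (8 of 11), checkpoint and anaphase genes (6 of 7), kinetochore genes (7 of 8) and spindle and cytokinesis genes (9 of 13).

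CCNB1 (chr5:69167135-69178245, GRCh38, plus strand) encodes cyclin B1, the partner of CDK1 at entry into mitosis. Its level was 176 and 169 CPM in TN and 59.5 and 57.1 CPM in PRTN, a log2 fold change of -1.56 (SE 0.06, limma-voom adjusted p = 1.1e-09). AURKA, the kinase of the spindle poles, went from 187 and 173 CPM to 53.2 and 55.5 CPM (-1.72, SE 0.06). Both genes were lower in each PRTN library than in either TN library. With 2 libraries a group, such separation also occurred in genes without a call, such as MYC, KLF6 and HEXIM1, and adds little.

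PLK1, the kinase that drives centrosome maturation, fell from 125 and 126 CPM to 47.3 and 49.0 CPM. CCNB2, a second B-type cyclin, fell from 69.1 and 64.5 CPM to 24.5 and 25.5 CPM, and FOXM1, the transcription factor of the G2 and M genes, from 178 and 179 CPM to 68.4 and 73.3 CPM. The kinesin KIF20A, needed for cytokinesis, had a log2 fold change of -1.57, and UBE2C, the ubiquitin-conjugating enzyme of the anaphase-promoting complex, one of -1.36. HJURP, the chaperone that loads CENPA at centromeres, went from 171 and 162 CPM to 64.5 and 65.9 CPM.

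Members of the mitosis list without a call stayed near their TN level. CDK1 itself was at 176 and 159 CPM in TN and 132 and 134 CPM in PRTN (-0.33, SE 0.09), and TOP2A, which untangles sister chromatids, at 413 and 370 against 344 and 348 CPM (-0.18, SE 0.06). SPC24 (0.33), NEK2 (0.29) and CDC25C (0.20) were the members with positive values, and none of them passed the fold threshold. The fall of NUF2, at the kinetochore, was lost without PRTN replicate 1 and without TN replicate 1.

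Of the 9 replication genes that rose, 3 were G1/S regulators, 3 belonged to the replication fork, 2 to nucleotide supply and 1 to origin licensing. CCNE1, cyclin E1, went from 18.0 and 18.6 CPM to 41.0 and 41.4 CPM (1.17, SE 0.08, limma-voom adjusted p = 8.0e-08). RRM2, the ribonucleotide reductase subunit made in S phase, went from 295 and 269 CPM to 605 and 600 CPM, and TK1, thymidine kinase, from 194 and 215 CPM to 417 and 423 CPM. The TN and PRTN libraries did not overlap for any of these genes, which adds little with 2 libraries a group.

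The fork genes were RFC2 (0.67) and RFC5 (0.79), of the clamp loader, and PRIM1 (0.71), of primase. E2F2 rose by 0.72 and CDC6, which loads the helicase on origins, by 0.71. E2F1 rose from 80.1 and 85.0 CPM to 123 and 126 CPM (0.59, SE 0.07), a value just past the fold threshold whose call was lost without PRTN replicate 2 and without TN replicate 1. TYMS, thymidylate synthase, fell from 187 and 187 CPM to 77.9 and 79.6 CPM, and MCM7, a helicase subunit, from 500 and 537 CPM to 283 and 284 CPM. The other MCM genes of the list had no call, with MCM4 at 424 and 426 CPM in TN and 411 and 412 CPM in PRTN.

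**Figure D2:**
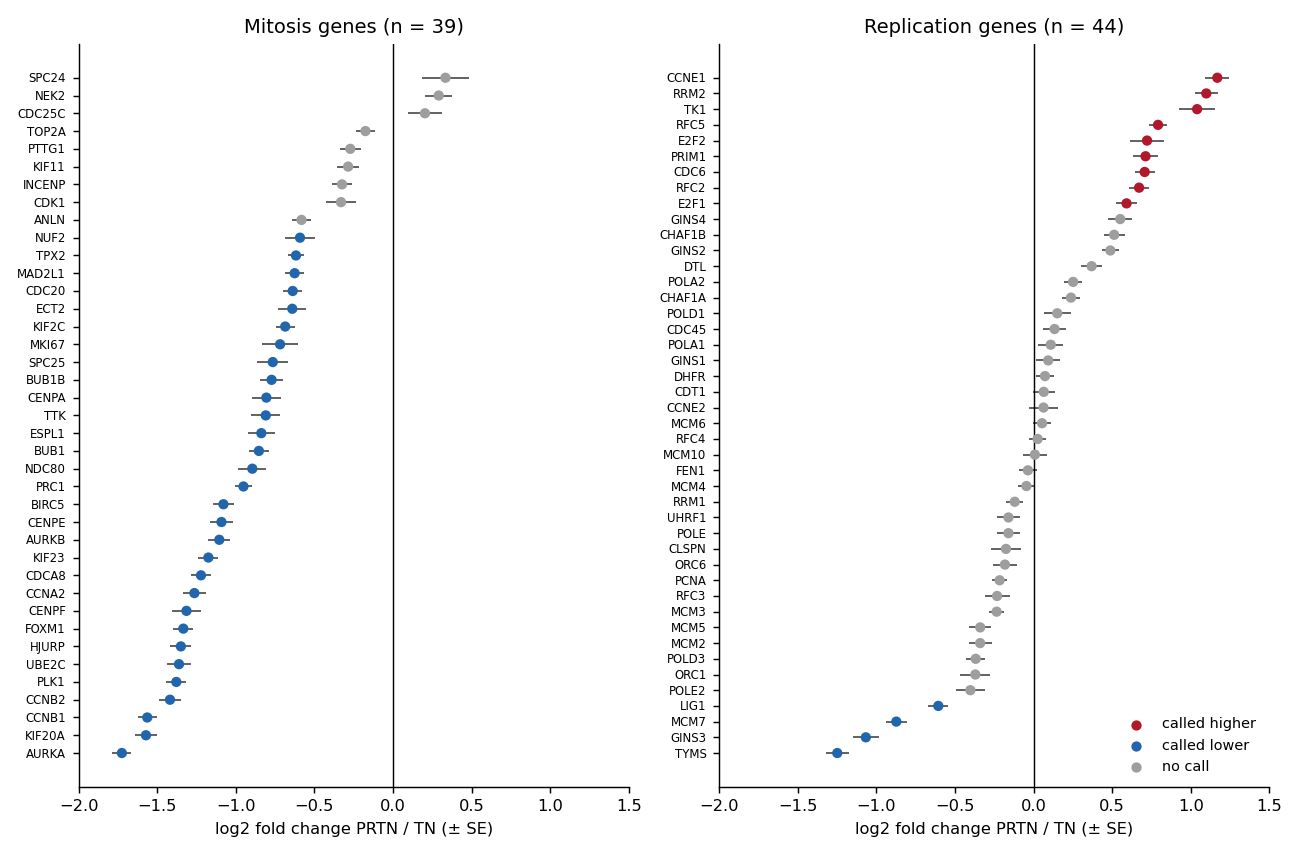
Log2 fold change of PRTN over TN with its standard error for each of the 39 mitosis genes (left) and 44 replication genes (right), coloured by call. On the left 30 genes are called lower and 0 higher, and on the right 9 are called higher and 4 lower.

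The inhibitors of the cyclin-dependent kinases did not move together. CDKN1A (chr6:36676460-36687337, GRCh38, plus strand) rose from 38.9 and 38.3 CPM to 287 and 289 CPM, a 7.46-fold difference of 38.6 ± 0.403 and 288 ± 1.21 CPM (SD, n = 2) with a log2 fold change of 2.90 (SE 0.06, limma-voom adjusted p = 6.6e-11). CDKN2D, the INK4 protein p19, rose from 4.88 and 5.17 CPM to 23.3 and 25.3 CPM. CDKN2B (p15), itself a TNF-α-induced gene, fell from 58.4 and 56.4 CPM to 20.3 and 21.7 CPM. CDKN1B (p27), CDKN1C (p57) and CDKN2A (p16) fell by 0.65, 0.84 and 0.67 on the log2 scale. CDKN2A had no call without TN replicate 2, and neither CDKN2A nor CDKN1B had one under library size scaling. Of the 3 CIP/KIP members, CDKN1A rose.

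Promoters of mitosis and replication genes are known to differ in the elements that time the cell cycle. The stretches just before the transcription start are therefore shown for members of each kind and for CDKN1A. The sequences are the 150 bases before the start in the first RefSeq entry of each gene in GRCh38.p14, read 5′ to 3′ on the strand of the gene, and capitals mark the motifs found by a search of both strands: the cell cycle homology element TTTGAA and CCAAT in the mitosis genes, the E2F element TTTGGCGC and CCAAT in E2F1 and E2F2, and GGGCGG, the GC box, in CDKN1A. The regions are chr16:23678739-23678888 (plus) for PLK1, chr15:59104996-59105145 (plus) for CCNB2, chr2:233854536-233854685 (minus) for HJURP, chr20:33686386-33686535 (minus) for E2F1, chr1:23531234-23531383 (minus) for E2F2 and chr6:36678564-36678713 (plus) for CDKN1A.
PLK1: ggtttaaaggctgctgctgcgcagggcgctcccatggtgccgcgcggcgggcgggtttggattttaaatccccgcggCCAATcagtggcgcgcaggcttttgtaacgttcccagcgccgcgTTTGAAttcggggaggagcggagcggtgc
CCNB2: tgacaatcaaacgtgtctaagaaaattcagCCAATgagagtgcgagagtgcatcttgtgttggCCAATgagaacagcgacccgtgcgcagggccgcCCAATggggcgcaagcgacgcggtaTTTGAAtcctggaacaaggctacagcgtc
HJURP: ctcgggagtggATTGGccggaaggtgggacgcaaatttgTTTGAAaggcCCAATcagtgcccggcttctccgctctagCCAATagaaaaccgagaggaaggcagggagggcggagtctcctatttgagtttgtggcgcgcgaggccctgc
E2F1: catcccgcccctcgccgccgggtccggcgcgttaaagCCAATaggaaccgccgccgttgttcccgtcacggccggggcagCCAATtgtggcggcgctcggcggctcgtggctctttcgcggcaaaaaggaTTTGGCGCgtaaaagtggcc
E2F2: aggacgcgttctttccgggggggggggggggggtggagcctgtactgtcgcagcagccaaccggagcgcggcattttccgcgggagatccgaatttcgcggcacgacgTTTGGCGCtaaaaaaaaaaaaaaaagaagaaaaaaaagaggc
CDKN1A: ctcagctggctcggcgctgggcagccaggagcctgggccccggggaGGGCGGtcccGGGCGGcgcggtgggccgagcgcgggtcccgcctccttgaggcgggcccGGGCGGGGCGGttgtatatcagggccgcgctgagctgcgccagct

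The TTTGAA of PLK1 and of CCNB2 begins 29 bases before the start, and 1 CCAAT lies upstream of it in PLK1 and 3 in CCNB2. In HJURP 1 CCAAT motif, on the other strand as ATTGG, lies upstream of TTTGAA and 2 lie downstream. The TTTGGCGC begins 20 bases before the start in E2F1 and 42 in E2F2. CDKN1A holds 4 GC boxes, beginning 104, 94, 45 and 40 bases before the start, of which the last pair overlap by 1 base. GGGCGG was marked only in CDKN1A. The printed windows of PLK1 and HJURP also hold it, as do those of CCNB2 and E2F1 on the other strand.

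Over the 250 bases before the start, TTTGAA was in 18 of the 33 mitosis genes with an entry (54.5%), in 1 of 38 replication genes (2.63%) and in 13.6% of 27305 promoters. TTTGGCGC was in 6 of 38 replication genes (15.8%), in 0 of 33 mitosis genes and in 0.553% of promoters. CCAAT was in 26 of the 33 mitosis and 22 of the 38 replication genes, against 33.0% of promoters. GGGCGG was in 25 of the 33 mitosis (75.8%) and 26 of the 38 replication genes (68.4%). It was in 8 of 17 genes of the histone deacetylase inhibitor list (47.1%) and in 42.3% of promoters. Among 12897 promoters of tested genes the shares were 8.84% for TTTGAA, 0.783% for TTTGGCGC, 34.5% for CCAAT and 62.8% for GGGCGG. Of the mitosis genes with TTTGAA in this window 13 of 18 fell, with a median of -0.77, and of those without it 11 of 15, with a median of -0.85. Of the replication genes with TTTGGCGC 2 of 6 rose, E2F1 and E2F2, whose promoters are printed, and 0 fell. Without it 7 of 32 rose and 4 fell. A match is only a string of letters, and its absence says nothing of the factor that binds elsewhere.

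Genes that textbooks give as responsive to histone deacetylase inhibitors were higher, with 16 of 20 called and a median of 1.73. CLU, clusterin, a secreted chaperone and tubular injury marker, went from 14.0 and 16.9 CPM to 314 and 319 CPM (4.36, SE 0.15). TXNIP, which binds thioredoxin and limits glucose uptake, went from 68.7 and 68.7 CPM to 766 and 793 CPM. DHRS2, a short-chain dehydrogenase, was at 0.745 and 0.682 CPM in TN and at 95.4 and 97.4 CPM in PRTN.

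H1F0, the linker histone of resting cells, rose from 68.0 and 65.3 CPM to 382 and 381 CPM (2.52, SE 0.06, limma-voom adjusted p = 6.6e-11), and GSN, the actin-severing gelsolin, from 98.5 and 112 CPM to 291 and 290 CPM. The 4 members without a call were TUBB3 (0.32), KLF6 (-0.15), HEXIM1 (0.21) and MT2A (-0.40). RARB was called at 0.145 and 0.152 CPM, a level of a few counts, and had no call by edgeR, by DESeq2 or without any 1 of PRTN replicates 1 and 2, TN replicate 1 and Ctrl replicates 1 and 2.

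The enzymes that write and erase histone acetylation moved in opposite ways in part. Of 48 listed and tested genes 5 rose and 16 fell, with a median of -0.32. Among acetyltransferases 6 of 12 fell and 1 rose, and among their partner subunits 7 of 14 fell and 0 rose. KAT5 (TIP60) went from 38.1 and 38.2 CPM to 17.4 and 17.6 CPM, and EP300 from 92.7 and 89.7 CPM to 52.9 and 45.0 CPM. JADE2, a subunit of the HBO1 acetyltransferase, went from 57.7 and 59.1 CPM to a mean of 11.5 CPM, the lowest log2 fold change of the list at -2.35.

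Class I deacetylases and corepressors gave 1 call in 9, HDAC3, which rose from 75.1 and 76.5 CPM to 147 and 151 CPM (0.98, SE 0.06). HDAC1 was at 295 and 298 CPM in TN and 435 and 444 CPM in PRTN (0.57, SE 0.05), under the fold threshold, and was called higher under library size scaling. Of class II and IV, HDAC5 (1.40), HDAC4 (0.90) and HDAC11 (0.75) rose and HDAC7 fell from 130 and 137 CPM to 35.1 and 35.6 CPM. The acetyl-lysine readers BRD8 and BRD9 fell by 1.25 and 1.18.

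Of 41 chromatin remodeler and histone genes 21 fell and 2 rose, with a median of -0.67. In SWI/SNF 8 of 16 subunits fell and 0 rose, led by ARID1B, from 153 and 160 CPM to 42.7 and 41.2 CPM (-1.90, SE 0.10), while its ATPases SMARCA4 (-0.35) and SMARCA2 had no call. In the CHD, ISWI and INO80 families 10 of 17 fell and 0 rose. CHD3, a NuRD helicase, went from 217 and 222 CPM to 66.4 and 67.6 CPM and BAZ1A, the partner of SMARCA5, from 222 and 204 CPM to 68.7 and 68.5 CPM. The 2 members that rose were the histones H1F0 and H2AFJ, and the histones H2AFZ, H2AFX and H2AFY fell by 0.73, 0.77 and 0.91, that of H2AFZ without a call under library size scaling.

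Of 38 listed and tested genes of cytokine signalling through JAK and STAT proteins 18 fell, 5 rose and 15 had no call, with a median of -0.57. Of the 16 receptor genes 10 fell. OSMR, the oncostatin M receptor, went from 245 and 242 CPM to 104 and 111 CPM, and IL4R from 45.3 and 52.0 CPM to 21.8 and 23.6 CPM. IL7R, IFNAR2, IFNGR1 and IFNGR2, which also fell, are TNF-α-induced genes, and with those 4 set aside 14 of 34 fell and 5 rose. IFNGR1 had no call under library size scaling. The LIF receptor gene LIFR rose, from 7.93 and 8.58 CPM to 20.7 and 19.6 CPM.

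JAK1, the kinase most of these receptors share, went from 1157 and 1127 CPM to 419 and 418 CPM (-1.45, SE 0.07, limma-voom adjusted p = 8.5e-09). STAT6, which acts after IL-4 and IL-13, went from 362 and 370 CPM to 73.0 and 77.9 CPM (-2.28, SE 0.09). STAT3, by contrast, rose from 98.3 and 104 CPM to 204 and 210 CPM (1.03, SE 0.06). The TN and PRTN libraries did not overlap for any of these genes, which adds little with 2 libraries a group.

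Genes of interferon response and antigen presentation split by class, with 11 of 50 tested genes (52 listed) higher and 13 lower. In the class I pathway 5 of 14 fell. PSMB10, an immunoproteasome subunit, went from 38.2 and 39.1 CPM to 3.33 and 3.06 CPM (-3.59, SE 0.13), PSMB8, another one, from 44.6 and 44.7 CPM to 12.8 and 13.1 CPM, and TAPBP, tapasin, from 271 and 320 CPM to 107 and 107 CPM. The class I light chain B2M (0.38) had no call.

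Of the 8 class II genes 5 rose and 0 fell. HLA-DRA and HLA-DRB1, 2 of those that rose, had under 3 counts in both TN libraries, and without them 3 of 6 rose. HLA-DMB, which loads peptides on class II molecules, went from 2.35 and 1.97 CPM to 29.9 and 30.3 CPM, and CD74, the invariant chain, from 44.5 and 53.2 CPM to 118 and 121 CPM. CIITA, the class II transactivator, was at 0.478 and 0.464 CPM in TN and 0.712 and 0.813 CPM in PRTN, without a call. HLA genes are near copies of one another, so reads may be divided between them, and HLA-DRB1 had no call without TN replicate 1 and without TN replicate 2. Interferon-stimulated genes went both ways, with IFIT3 at -3.15 and IFI44L at -2.83 but IFI6 at 2.71 and ISG15 at 1.62.

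The path from the TNF receptor to NF-κB gave 4 higher (12.9%) and 5 lower (16.1%) genes among 31, of which 9 are TNF-α-induced. The shares over all tested genes were 23.9% and 16.7%. TNFRSF1A, the receptor TNFR1, went from 92.0 and 101 CPM to 60.0 and 66.2 CPM (-0.61, SE 0.10), and TNFRSF1B, TNFR2, from 0.894 and 1.26 CPM to 8.40 and 8.82 CPM. The fall of TNFRSF1A had no call without PRTN replicate 1, without TN replicate 2 or under library size scaling. None of the 7 kinase genes was called in limma-voom, and of these CHUK had the largest value at 0.43, which was called under library size scaling. The subunit gene RELA was level, at 89.8 and 94.4 CPM in TN and 87.3 and 90.9 CPM in PRTN. NFKB1 fell by 1.69, and 3 of 8 inhibitors, NFKBIA, TNFAIP3 and TNIP1, fell too, all 4 of them TNF-α-induced, while BIRC3, an induced ubiquitin ligase, rose from 504 and 469 CPM to 1141 and 1119 CPM. Of the 22 members that were not induced, 3 rose and 1 fell.

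Genes from growth factor receptors through MAP kinases to AP-1 rose in 17 (33.3%) and fell in 9 (17.6%) of 51 cases. Their median was 0.07, against 0.09 over all genes, of which 23.9% were higher and 16.7% lower. Without 3 members that had under 3 counts in both TN libraries, 14 of 48 rose and 9 fell. AREG (chr4:74445136-74455005, GRCh38, plus strand) encodes amphiregulin, a ligand of EGFR. It went from 15.1 and 14.6 CPM to 232 and 232 CPM, a log2 fold change of 3.96 (SE 0.14, limma-voom adjusted p = 5.7e-10). The other EGFR ligands of the list had no call, except NRG1, a ligand of ERBB3 and TNF-α-induced, which fell from 146 and 145 CPM to 52.9 and 49.1 CPM.

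Among receptors, EGFR went from 473 and 485 CPM to 314 and 297 CPM and AXL from 198 and 216 CPM to 57.2 and 54.5 CPM, whereas FGFR1 rose from 37.8 and 41.5 CPM to 121 and 125 CPM and ERBB3 from 0.894 and 1.79 CPM to 15.7 and 14.8 CPM. The fall of EGFR had no call under library size scaling. The feedback inhibitors of this path rose in 7 of 9 cases with 0 lower. DUSP6, the phosphatase of ERK, went from 17.8 and 14.8 CPM to 97.0 and 105 CPM (2.64, SE 0.11), and SPRY4, sprouty 4, from 3.76 and 3.27 CPM to 13.4 and 11.7 CPM.

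The AP-1 subunits went both ways. FOS rose from 46.2 and 35.9 CPM to 272 and 240 CPM and JUN from 310 and 289 CPM to 683 and 622 CPM. FOSL1, TNF-α-induced, fell from 84.7 and 70.4 CPM to 18.3 and 14.9 CPM, and FOSL2 from 494 and 524 CPM to 269 and 278 CPM. MYC had no call, at 219 and 229 CPM in TN and 195 and 207 CPM in PRTN.

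**Figure D3:**
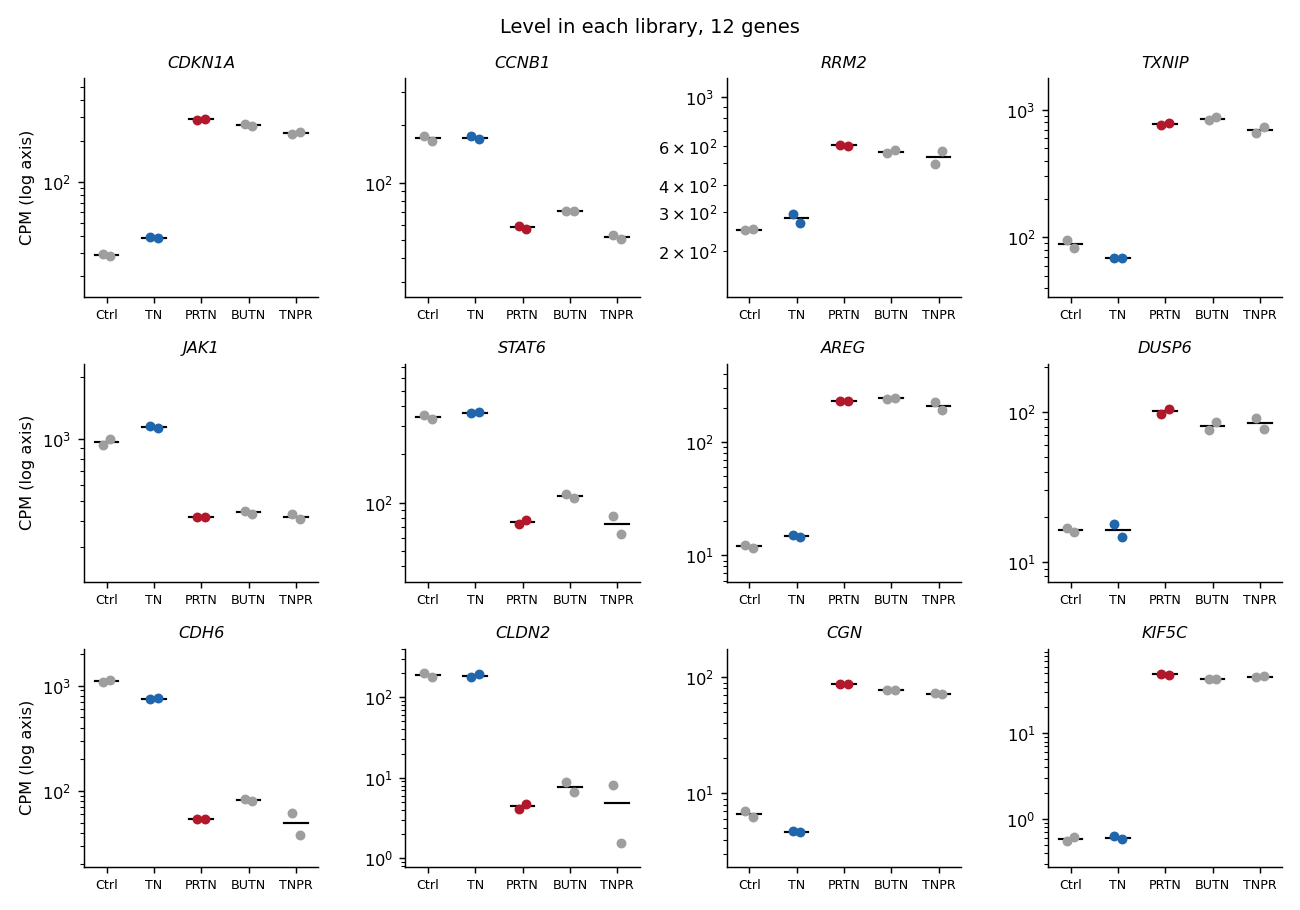
Level of 12 genes in each library of Ctrl, TN (blue), PRTN (red), BUTN and TNPR, in CPM on a log axis, with a bar at the mean of the 2 libraries. For each gene the PRTN libraries lie apart from the TN libraries, as for CDKN1A at 287 and 289 against 38.9 and 38.3 CPM.

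Genes of apoptosis rose in 6 (17.6%) and fell in 10 (29.4%) of 34 cases, with a median of -0.14. The shares were 23.9% and 16.7% over all tested genes, and 18.0% and 23.2% above 10 CPM. CFLAR, the inhibitor of caspase 8 known as FLIP, went from 153 and 155 CPM to 38.3 and 38.6 CPM, and XIAP from 94.1 and 85.0 CPM to 45.6 and 45.0 CPM. DIABLO, which opposes the inhibitors of apoptosis, rose from 47.6 and 52.6 CPM to 99.5 and 94.9 CPM. BCL2L11 (BIM) rose by 0.83, and BID, a TNF-α-induced gene, fell by 1.60. MCL1, an anti-apoptotic member, had no call, at 535 and 449 CPM in TN and 494 and 429 CPM in PRTN.

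Of 79 tested adhesion genes (81 listed) 37 rose and 23 fell, and among the 51 with a mean above 10 CPM over all 12 libraries 15 rose and 21 fell. CDH6, the cadherin of the embryonic proximal tubule, went from 744 and 755 CPM to 53.6 and 54.0 CPM (-3.80, SE 0.15). CDH2, N-cadherin, fell from 314 and 301 CPM to 142 and 147 CPM, and CDH1, E-cadherin, went from 0.0745 and 0.144 CPM, or 2 and 4 counts, to 14.3 and 13.4 CPM.

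At tight junctions CLDN2 (chrX:106900164-106930861, GRCh38, plus strand), the cation channel claudin of the proximal tubule, went from 178 and 192 CPM to 4.14 and 4.71 CPM. Its log2 fold change was -5.39 (SE 0.40, limma-voom adjusted p = 2.0e-07). CGN, the junctional scaffold cingulin, rose from 4.73 and 4.67 CPM to 88.0 and 86.8 CPM (4.21, SE 0.10), and CLDN11 from 58.0 and 62.5 CPM to 170 and 175 CPM. All 9 desmosome genes were called, 6 lower and 3 higher. DSC3, a desmosomal cadherin, fell from 105 and 102 CPM to 26.9 and 26.1 CPM and PKP2, plakophilin 2, rose from 14.2 and 13.9 CPM to 48.1 and 48.1 CPM.

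Integrin genes rose in 9 and fell in 4 of 18 cases. ITGB6, the epithelial subunit that activates TGF-β, went from 102 and 91.6 CPM to 7.61 and 8.64 CPM, and ITGAV, its partner, from 743 and 689 CPM to 391 and 390 CPM. ITGA6, a laminin receptor, rose from 16.9 and 15.4 CPM to 53.1 and 50.3 CPM. Of the EMT transcription factors, SNAI1 rose by 1.76 (SE 0.09) from 13.3 and 13.9 CPM and ZEB2, TNF-α-induced, fell from 67.5 and 62.1 CPM to 14.3 and 14.5 CPM. BCAM, a laminin-binding adhesion molecule, rose by 3.27.

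Matrix genes rose in 47 (54.0%) and fell in 18 (20.7%) of 87 tested cases (90 listed), with a median of 0.82. Over all tested genes 23.9% were higher and 16.7% lower. Most of the excess of rises lay at low levels. Above a mean of 10 CPM 22 of 56 matrix genes rose and 17 fell, where 18.0% and 23.2% of all genes did. Of the listed genes 12 had under 3 counts in both TN libraries. The fibroblast markers rose over the same libraries, as given above, but they share members with this list, COL1A1, COL1A2 and POSTN among them. Their rise is therefore not independent of these counts, and their part in them was not tested. FN1, fibronectin, the member with the highest CPM, fell from 13458 and 14583 CPM to 8159 and 7894 CPM (-0.80, SE 0.14), and COL4A1 from 2410 and 2550 CPM to 992 and 1012 CPM (-1.31, SE 0.05).

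VCAN, versican, went from 473 and 461 CPM to 117 and 111 CPM and TNC, tenascin C, from 836 and 954 CPM to 382 and 387 CPM. Rising at high level were THBS2, thrombospondin 2, from 242 and 266 CPM to 904 and 914 CPM, and COL1A1, a chain of collagen I, from 39.6 and 43.2 CPM to 175 and 181 CPM. COL1A2, the other chain of collagen I, had no count in TN and 0.289 and 0.122 CPM in PRTN. The crosslinking enzymes also split, since LOX fell from 151 and 147 CPM to 42.7 and 44.3 CPM and TGM2, transglutaminase 2, rose from 410 and 450 CPM to 3106 and 3172 CPM (2.87, SE 0.09).

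Matrix proteases were called in 20 of 22 cases, 15 higher and 5 lower, and above a mean of 10 CPM 4 of 10 rose and 5 fell. MMP7, matrilysin, a urinary marker of tubular injury, went from 885 and 939 CPM to 116 and 118 CPM (-2.96, SE 0.31), and MMP14, the membrane collagenase, from 218 and 245 CPM to 78.1 and 82.2 CPM. ADAMTS3, a procollagen peptidase, rose from 35.7 and 35.1 CPM to 340 and 330 CPM, and MMP15 from 113 and 134 CPM to 261 and 264 CPM. The remaining metalloproteinase genes that rose were at or under 17.2 CPM in PRTN.

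Hippo and actin genes fell in 15 and rose in 4 of 39 cases, with a median of -0.29. YAP1, the Hippo effector, went from 235 and 226 CPM to 73.0 and 71.1 CPM (-1.68, SE 0.11), while TEAD1, its DNA-binding partner, rose from 162 and 160 CPM to 303 and 297 CPM. Of 10 known targets 4 fell and 2 rose, the latter ANKRD1, from 201 and 160 CPM to 778 and 730 CPM, and CTGF, from 982 and 775 CPM to 1618 and 1407 CPM. TPM1, tropomyosin, fell from 1470 and 1405 CPM to 541 and 547 CPM, and CAV1, caveolin 1, from 461 and 459 CPM to 159 and 161 CPM.

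Genes known from neurons were the list with the most called rises by number. Of 133 listed genes 122 were tested, 84 rose and 12 fell, with a median of 1.45. A gene silent in TN could enter the test only through the libraries that express it, and 24 of the listed genes had under 3 counts in both TN libraries. The count of rises is inflated by such genes, and without them 72 of 109 rose and 12 fell. Above a mean of 10 CPM 27 of 53 rose and 11 fell, where 18.0% of all genes were higher and 23.2% lower. Neuron markers were higher over the same libraries, with STMN2 and ELAVL4 at no count in PRTN. They share members with this list, MAP2 among them, so they are not independent of these counts, and their part in them was not tested.

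**Figure D4:**
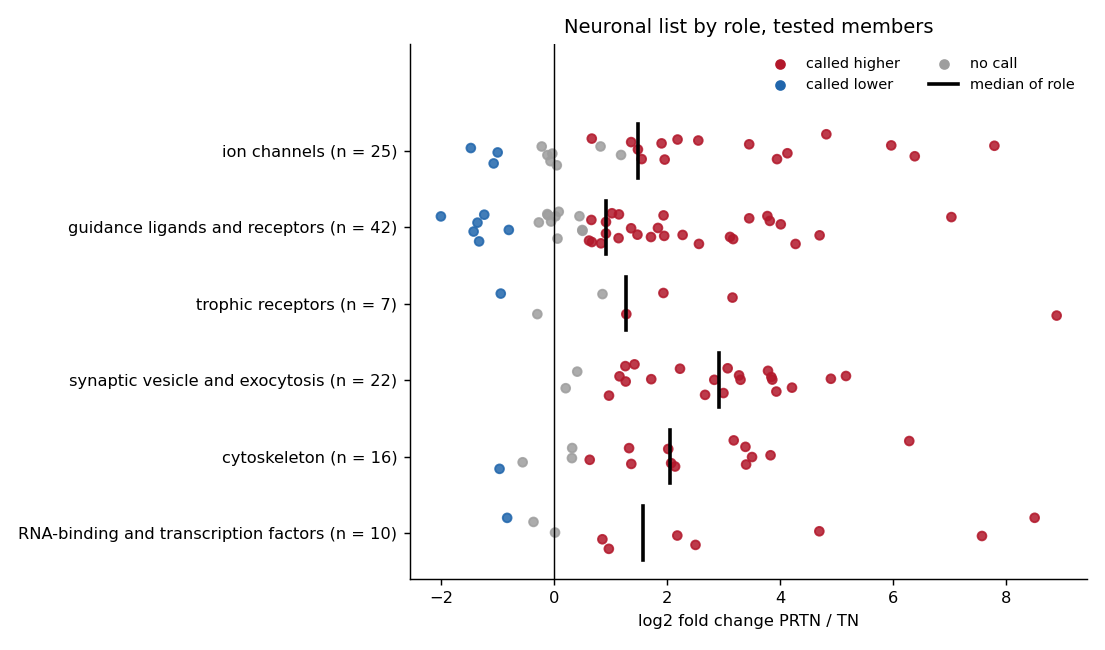
Log2 fold change of PRTN over TN for the 122 tested genes of the neuronal list by role, coloured by call, with a bar at the median of each role (points are spread vertically for sight only). Synaptic vesicle and exocytosis genes have the highest median, 2.92, with 20 of 22 called higher and 0 lower.

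Synaptic vesicle and exocytosis genes rose in 20 of 22 tested cases (25 listed) and fell in 0. UNC13A, which primes vesicles for fusion, went from 3.28 and 4.16 CPM to 56.9 and 50.2 CPM (3.85, SE 0.22). SYP, synaptophysin, went from 0.819 and 0.682 CPM to 22.6 and 23.1 CPM and SYT11, a synaptotagmin, from 46.3 and 47.2 CPM to 104 and 104 CPM. VAMP2 and SCG5 had no call.

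Of the cytoskeletal genes 12 of 16 rose and 1 fell. KIF5C, a kinesin of axonal transport, went from 0.633 and 0.574 CPM to 48.6 and 48.5 CPM (6.29, SE 0.24, limma-voom adjusted p = 1.1e-09), and MAP2, the dendritic microtubule protein, from 6.96 and 7.97 CPM to 77.0 and 79.4 CPM. NEFH, the heavy neurofilament, was already at 122 and 121 CPM in TN and fell to 62.2 and 61.8 CPM. REST, the repressor of neuronal genes in other tissues, fell from 58.4 and 58.4 CPM to 33.3 and 32.2 CPM (-0.84, SE 0.10).

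Guidance genes rose in 26 and fell in 6 of 42 cases. EFNB2, an ephrin, went from 17.8 and 16.6 CPM to 83.5 and 82.8 CPM and SLIT2 from 1.23 and 2.01 CPM to 24.1 and 21.0 CPM. Genes lower after propionate included SEMA3C, from 655 and 617 CPM to 366 and 361 CPM, PLXNB1, from 77.6 and 85.2 CPM to 19.4 and 21.0 CPM, and NRP1, from 47.6 and 47.0 CPM to 17.8 and 17.2 CPM. SEMA3C had the highest CPM of the guidance genes in TN (not scaled for length), followed by PLXND1 and PLXNA1, which had no call.

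Ion channel genes rose in 15 and fell in 3 of 25 cases. CACNA1H, a T-type calcium channel, went from 2.72 and 3.20 CPM to 51.4 and 52.8 CPM. CACNA1G, another T-type channel, had 2 and 1 counts in TN and 16.1 and 15.3 CPM in PRTN, at least 143-fold higher than a floor of 3 counts per library. KCNMA1, a calcium-activated potassium channel, fell from 66.9 and 67.3 CPM to 32.4 and 31.2 CPM.

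Over all genes, 19 had under 3 counts in each TN and Ctrl library and at least 3 CPM in both PRTN libraries. Beside CACNA1G they included ATCAY, at least 82.7-fold above the floor, ATP1B2, a sodium pump subunit, at least 80.0-fold, CD9, a tetraspanin, at least 76.4-fold, and SNCB, β-synuclein, at least 62.7-fold. CD9 was at 8.80 and 7.97 CPM in PRTN with 1 and 0 counts in TN. That each PRTN library was far over the floor for these genes follows from how they were picked.

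Of 59 listed genes of tubule identity 44 passed the filter, which was taken over all 12 libraries. Among these 19 rose (43.2%) and 10 fell (22.7%), against 23.9% and 16.7% of all tested genes. Of the listed genes 22 had under 3 counts in both TN libraries, and some were tested through the libraries that express them. Without such genes 37 were tested, of which 13 rose and 10 fell. PAX8, the nephron lineage factor of this line, went from 392 and 414 CPM to 156 and 160 CPM (-1.35, SE 0.05), and LHX1, another nephron factor, from 48.9 and 50.2 CPM to 14.4 and 15.6 CPM. HNF4A, the proximal tubule factor, had no count in TN and 0.232 and 0.213 CPM in PRTN. AQP1, the water channel of the proximal tubule, rose from 0.447 and 0.431 CPM to 8.42 and 9.16 CPM.

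ANPEP, a brush border peptidase, was at 0 in TN and at 1.94 and 2.07 CPM in PRTN, at least 18.3-fold higher, and GGT1, γ-glutamyl transferase, fell from 179 and 208 CPM to 64.3 and 63.8 CPM. Injury markers also divided. HAVCR1, which encodes KIM-1, went from 194 and 202 CPM to 56.7 and 59.8 CPM (-1.77, SE 0.14) and SPP1, osteopontin, from 350 and 360 CPM to 109 and 108 CPM. KRT19, a keratin of injured tubules, rose from 4.47 and 4.59 CPM to 95.8 and 91.1 CPM, and KRT8 and KRT18 rose by 0.94 and 1.03. VIM, vimentin, had no call at -0.25.

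Redox genes rose in 13 and fell in 10 of 35 cases. PRDX1, peroxiredoxin 1, went from 656 and 640 CPM to 1432 and 1423 CPM (1.14, SE 0.07), and TXNRD1, thioredoxin reductase 1, from 422 and 412 CPM to 883 and 891 CPM. NQO1, a quinone reductase, fell from 83.9 and 81.1 CPM to 32.5 and 33.7 CPM. SOD2, the mitochondrial superoxide dismutase and a TNF-α-induced gene, fell from 3292 and 3281 CPM to 693 and 685 CPM. NFE2L2, which encodes NRF2, had no call, and its inhibitor KEAP1 fell by 1.33.

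Genes that take up and burn propionate gave no common direction, with 9 of 42 tested (48 listed) higher (21.4%) and 6 lower (14.3%). These shares were near the 23.9% and 16.7% over all tested genes. The monocarboxylate transporter SLC16A1 was at 340 and 342 CPM in TN and 312 and 320 CPM in PRTN without a call, while its chaperone BSG rose from 460 and 527 CPM to 984 and 985 CPM. The propionyl-CoA carboxylase genes PCCA (0.12) and PCCB (-0.30) had no call. Of the 4 listed receptors 2 were tested. FFAR2 was under 0.3 CPM in every TN and PRTN library. HCAR2 had no count in TN and 0.178 and 0.152 CPM in PRTN, a level of a few counts, and its call was lost by DESeq2 and without PRTN replicate 1, TN replicate 1 or TN replicate 2.

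The nucleolar genes fell in 11 of 22 cases and rose in 1, and with the MYC network 2 rose and 11 fell of 29. UBTF, the factor of RNA polymerase I, went from 98.0 and 99.3 CPM to 24.3 and 24.2 CPM (-2.02, SE 0.08), NCL, nucleolin, from 1069 and 1015 CPM to 560 and 560 CPM, and NPM1, nucleophosmin, from 796 and 753 CPM to 450 and 437 CPM. Sterol synthesis gave 3 higher (9.68%) and 5 lower (16.1%) genes of 31. Of the 45 tested lysosome and autophagy genes (46 listed), 13 rose (28.9%) and 5 fell (11.1%). Over all tested genes 23.9% were higher and 16.7% lower. LIPA, lysosomal acid lipase, rose from 57.6 and 55.9 CPM to 220 and 214 CPM, and CTSS, cathepsin S, fell from 183 and 186 CPM to 23.5 and 25.2 CPM.

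Outside the lists, the genes with the greatest changes came from several systems. CPA4, a carboxypeptidase, went from 1.34 and 1.51 CPM to 300 and 310 CPM (7.73, SE 0.59, limma-voom adjusted p = 2.6e-07), and BCAS1 from 0.261 and 0.251 CPM to 34.4 and 32.6 CPM. SLC2A3, the glucose transporter GLUT3, went from 99.1 and 97.1 CPM to 1488 and 1469 CPM (3.91, SE 0.07), and PEG10, a gene of retrotransposon origin, from 230 and 233 CPM to 1318 and 1240 CPM.

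Among falls, ENPP3, an ectonucleotidase, went from 255 and 251 CPM to 9.03 and 10.4 CPM (-4.71, SE 0.17), and TNFSF10, the death ligand TRAIL, from 657 and 652 CPM to 34.7 and 35.2 CPM (-4.23, SE 0.24). The study counts TNFSF10 among its TNF-α-induced genes, a set larger than the one used here. CLCF1, a cytokine of the IL-6 family, went from 37.8 and 38.2 CPM to 2.32 and 2.31 CPM, and HMGA2, an architectural chromatin protein of dividing cells, from 1206 and 1124 CPM to 135 and 140 CPM. DCBLD2, a membrane receptor, fell from 2121 and 2168 CPM to 700 and 699 CPM. These genes were picked for large changes without overlap of libraries, so the separation of their groups is no further evidence.

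Whether the same programmes moved when propionate came after TNF-α was read from TNPR against Ctrl, which shares no library with PRTN against TN. In TNPR 23.6% of genes were higher and 16.8% lower than in Ctrl. With the TNF-α-induced genes set aside, 4629 genes were called higher in both comparisons, 79.7% of those of PRTN and 81.5% of those of TNPR, and 3183 lower in both, 80.5% and 79.1%. Opposite calls were made for 18 genes. The log2 fold changes of the 24156 genes had r = 0.82, a description across genes, which are not independent replicates, in comparisons that were scaled and fitted together.

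By list, mitosis gave 30 of 39 lower and 0 higher in TNPR against Ctrl at a median of -1.01, chromatin remodelers 24 lower and 2 higher of 41, JAK-STAT 16 lower and 6 higher of 38, the histone deacetylase inhibitor list 15 of 20 higher, and the neuronal list 84 higher and 14 lower of 122. The limit that the filter sets on the neuronal count holds here as well. CDKN1A was at 29.4 and 28.4 CPM in Ctrl and 227 and 234 CPM in TNPR. CCNB1 was at 176 and 166 CPM in Ctrl and 53.1 and 50.3 CPM in TNPR.

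**Figure D5:**
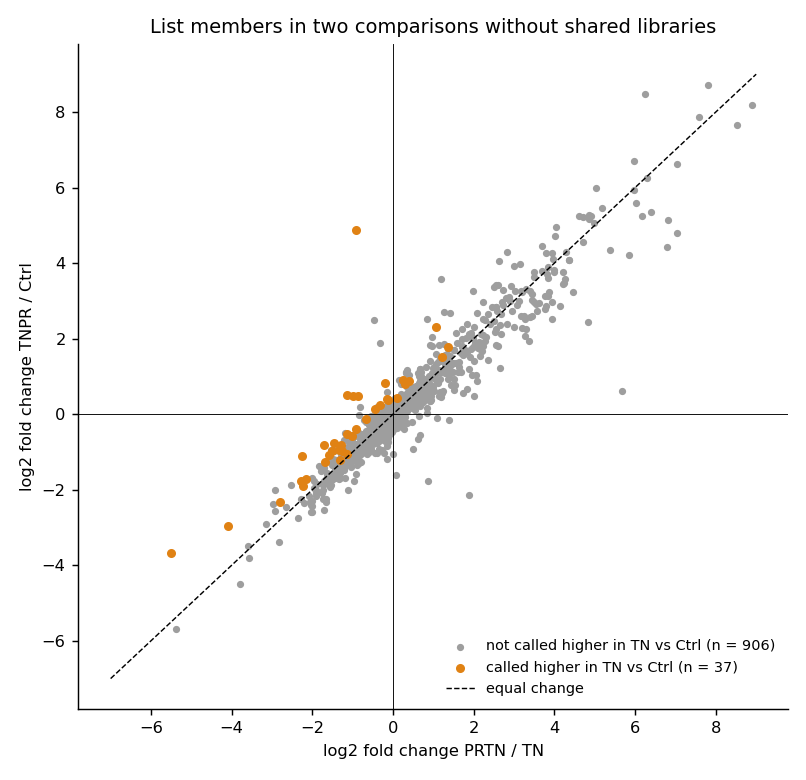
Log2 fold change of PRTN over TN (horizontal) against that of TNPR over Ctrl (vertical) for the 943 tested members of the lists, 37 of them TNF-α-induced (orange), with a dashed line at equal change. The 906 members that were not induced have r = 0.96, with both axes on the log2 scale.

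Values after butyrate at 3 mM and propionate at 15 mM, each before TNF-α, are given side by side, since the doses differ. Of 24342 genes, 41 (0.168%) were called between PRTN and BUTN by limma-voom, 10 higher and 31 lower in PRTN. Without PRTN replicate 1 these counts were 1 and 2, without PRTN replicate 2 they were 16 and 4, without either TN library 4 or 5 and 23, without either Ctrl library 7 and 18, and a fit of these groups alone gave 57 and 121. LCN2, lipocalin 2, a tubular injury marker, was at 153 and 166 CPM in TN, 124 and 132 CPM in PRTN and 229 and 228 CPM in BUTN. AQP1 was at 0.447 and 0.431 CPM in TN, 8.42 and 9.16 CPM in PRTN and 14.5 and 15.1 CPM in BUTN.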

How the data were processed

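Stranded mRNA libraries of HK2 cells were sequenced by the authors on an Illumina HiSeq. Alignment by the authors was to GRCh38 with STAR, RSEM then estimated counts per gene of GENCODE release 26, and the submitters' processing notes name STAR 2.6.1a and FastQC 0.11.5. The deposited values are expected counts, estimates that need not be whole (19.3% were not) and that divide reads matching several genes. The RSEM version and its strand setting are not given in the sources used here.

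Groups came from the label of each library. Of 58278 genes, the 24342 whose geometric mean of the count plus 1, less 1, was at least 1 were kept. The study's methods name a geometric mean under 1 as the filter without an added 1, which was run as an alternative and leaves 19096 genes. TMM factors (edgeR 4.0.16), voom weights and moderated statistics with a mean for each of 6 groups (limma 3.58.1, R 4.3.3) gave the contrasts, with Benjamini-Hochberg adjustment and a call required both an adjusted p under 0.05 and a change of more than 1.5-fold. Counts were rounded only for the alternatives of edgeR's quasi-likelihood test and DESeq2 1.42.0. Tables were made with Python 3.11.15, numpy 2.4.6 and pandas 2.3.3. On simulated data for PRTN against TN, limma-voom recovered 79% of 2-fold and 97% of 4-fold changes among 200 changed of 24342 genes, with 2 false calls. The changed genes were drawn only from those above 1 CPM, with rises and falls in equal number. Recovery at lower levels, or with as many and as uneven changes as in the data, was not tested.

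The comparison, the 21 gene lists, the marker lists and the motifs were chosen with earlier results of these data known. No list was tested as a set, and lists are described by counts and medians. Named genes were list members, those with the highest level or largest change in a role coming first, the 12 largest fold changes and the 8 largest changes in CPM in each direction among called genes that TNF-α had not induced and whose libraries did not overlap (at least 10 CPM in the higher group for the former), and the 8 highest genes silent in TN and Ctrl. Read-through, antisense, mitochondrial and unnamed genes and those with near-identical copies were passed over, and only a part of the rest is given. Some list members are not reported here by name, and the counts over lists include them. The genes named beside BUTN were chosen after their values were seen. Positions are from GENCODE release 44, which matched 24026 of the gene identifiers. Promoters are RefSeq sequences of GRCh38.p14, the first of 35116 entries per symbol being used. Folds against silent groups use a floor of 3 counts. The alternatives comprised edgeR, DESeq2, relative log expression and library size scaling, 3 other filters, fits of fewer groups, the replicate number as a block, a fold change over 2, the unadjusted p and leaving out each replicate of PRTN, TN and Ctrl.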

Additional observations from a re-analysis of the deposited data

How the results depend on the processing

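PRTN against TN gave 5824 genes higher and 4057 lower, and its calls stayed within 1.5 times these counts under each alternative but 1: a fold change over 2 left 4467 higher and 2231 lower (2201 lower without TNF-α-induced genes). Leaving out 1 library gave 4532 to 5699 higher and 3685 to 4082 lower. Replicate numbers did not pair the samples, since same-numbered libraries deviated from the mean of their group with r of -0.04 to 0.08 over 15 pairs of groups, 0 of them over 0.1, and -0.01 between TN and PRTN. With the replicate block PRTN against TN gave 5840 higher and 4060 lower. At a fold change over 2, PRTN against Ctrl had 2339 and TNPR against Ctrl 2296 genes lower, mitosis had 15 lower, replication 3 higher and 2 lower, JAK-STAT 3 higher, growth factor genes 4 lower, histone acetylation 1 higher and matrix 11 lower. Library size scaling gave chromatin remodelers 4 higher. TN against Ctrl depended on the fit: of 186 higher and 130 lower, a fit of these groups alone gave 79 and 12, a fold change over 2 gave 67 and 40, the unadjusted p 527 and 719, and leaving out 1 library 118 to 170 and 50 to 100. PRTN against BUTN (10 higher, 31 lower) gave 6 higher by edgeR, 6 higher with the replicate block, 23 and 52 without a filter, 57 and 121 with these groups alone, 30 and 114 with Ctrl, TN, PRTN and BUTN, 2 and 4 at a fold change over 2, 307 and 547 by unadjusted p, and 1 to 16 and 2 to 23 without 1 library. The cause was not tested, beyond a stricter threshold or fewer samples giving other counts by construction. Of 588 named and listed genes with a call, 0 reversed under any alternative, 77 lost the call without some library, 39 under library size scaling, 29 by DESeq2 and 162 at a fold change over 2. With 2 libraries a group, changes near the threshold and genes near 3 counts are the least certain.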
